A study of Arabidopsis thaliana with 24 samples.

Results

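The effect of sucrose on polysomal occupancy was examined in Arabidopsis seedlings kept in the light. Polysomal occupancy is the log2 value of a gene in polysomal RNA minus its log2 value in total RNA of the same culture. Cultures treated with sucrose in the light were taken by their labels and compared with light controls, 3 cultures a side. They make up 6 of the 12 cultures and 12 of the 24 arrays of the series.

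The seedlings, of accession Col-0, were raised under constant light in a liquid medium. Their age was 7 days by the labels and 10 days by the methods of the study. Light sucrose cultures then received 150 mM sucrose for 6 h, and light control cultures 150 mM sorbitol, which gives the medium the same molarity without a sugar that plants readily use. The other 6 cultures had the same additions in darkness. Total and polysomal RNA came from the same extract of a culture, the polysomal RNA from the small polysomes of a sucrose gradient, and both were hybridized to AGRONOMICS1 tiling arrays.

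An mRNA that is being translated carries several ribosomes, and such polysomes sediment faster than free mRNA. A higher share of an mRNA in polysomes is commonly read as more frequent initiation of translation. In the study of these cultures, however, the mRNAs with raised occupancy that were followed through gradients carried fewer ribosomes each. The study proposes that their induction does not rest on initiation alone. Sugars are known to raise protein synthesis in plants, and mRNAs differ in how far they follow. The array values are relative to the other genes of the same array, so a change in the amount of polysomes as a whole is not contained in them. Large polysomes were not analysed here. A move from large to small polysomes can therefore not be told apart from a move of free mRNA into polysomes.

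Array medians lay between 5.92 and 6.06 on the log2 scale, and the median occupancy of a culture between -0.02 and 0.05. The median SD of occupancy among 3 cultures was 0.174 in light sucrose, 0.163 in light control, 0.183 in dark sucrose and 0.158 in dark control. The material was checked with markers of tissues. In total RNA, the green-tissue gene RBCS1A lay at 8.96 to 9.19 in sucrose and 9.99 to 10.2 in control cultures, and the root gene PYK10 at 11.7 to 12.16 in sucrose and 12.07 to 12.46 in control cultures. The seed storage gene CRA1 lay at 5.3 to 5.9 in sucrose and 5.6 to 5.74 in control cultures. Whole seedlings mix tissues, and fewer cells of a type cannot be told apart from less RNA per cell.

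Sucrose raised the polysomal occupancy of far more mRNAs than it lowered. Of 30386 gene features tested with limma, 312 (1.03%) changed at a Benjamini-Hochberg adjusted p under 0.05. Among them, 289 (0.951%) rose and 23 (0.0757%) fell. The median change of all features was -0.01, and 48.2% of them had a change above 0. Fitted rises were 0.48 to 2.08 on the log2 scale with a median of 0.92, and 119 exceeded 2-fold. Falls had a median of -0.82, and 6 exceeded 2-fold. The number of calls depended on which cultures were fitted. Without replicate 7 or without replicate 8 of all treatments none remained, at unadjusted p under 0.05 in 2743 and 2302 features, against 368 calls without replicate 9. Leaving out a single light culture gave 24 to 34 calls, except 291 without control culture 9. The dark cultures share the estimate of the spread, and leaving out one of them gave 128 calls (dark control 8) to 900 (dark sucrose 9).

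Ribosomal proteins and SNAREs, the membrane fusion proteins of vesicle traffic, were a small part of the rises. There were 13 cytosolic ribosomal protein features, led by RPS15A with 1.46 ± 0.16, and 4 SNAREs, led by VAMP711 with 1.62 ± 0.26. The other 272 rises are the subject here. By type of locus, 282 of the 289 rises encode proteins, 4 are noncoding RNAs, 2 are of pseudogene type and 1 was not in the reference gene table. Only 129 of the 289 rises have a gene symbol. The gene lists below were drawn largely by symbol, so they may cover a family in part. Their counts hold for the listed features only. A single call in a list is no result about its family, as 0.951% of all features rose. Of the features with an array signal above the median, 1.76% rose and 0.0724% fell, and they included 268 of the 289 rises but 11 of the 23 falls.

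The rises came about in several ways. Polysomal RNA alone increased for 128 of the 289, total RNA alone decreased for 69, and 27 showed both. A further 31 decreased in both kinds of RNA, less so in polysomes, 24 increased in both, and 10 passed in neither. In all, 179 rose in polysomal RNA, where 18.5% of all features rose, and 127 fell in total RNA, where 12.8% of all features fell. The occupancy change is the difference of these changes, so the counts describe the rises and are no further evidence for them. The median change of the rises was 0.60 in polysomal and -0.28 in total RNA.

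**Figure D1:**
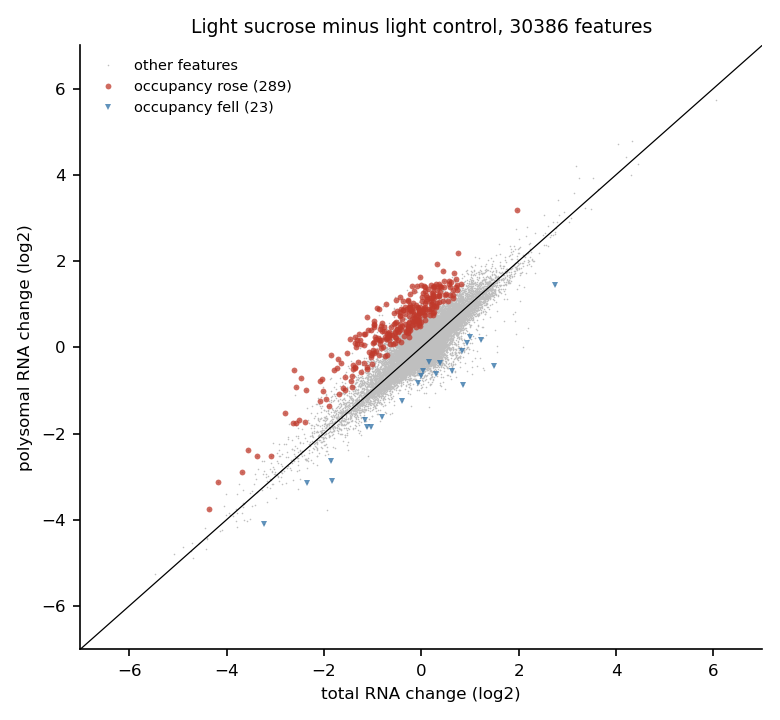
Change in polysomal RNA (y axis, log2) against change in total RNA (x axis, log2), light sucrose minus light control, for 30386 gene features. Red points are the 289 rises in occupancy, blue triangles the 23 falls, and the diagonal marks equal change. The rises run from genes that decreased in both kinds of RNA to genes that increased in both, with medians of 0.60 in polysomal and -0.28 in total RNA.

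mRNAs whose occupancy rose were under-represented in polysomes of the control seedlings. The 289 rises had a median occupancy of 0.29 in light sucrose and -0.71 in light control, against 0.00 and -0.01 for all features. As the light control enters the contrast that chose them, this is a description. The dark control cultures entered the test only through the common spread, and there the median of the same features was -0.61, with 255 of 289 below 0, against a median of -0.03 over all features. The 23 falls had a dark control median of 0.22.

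Ribosomal proteins and SNAREs left aside, the largest rises with an array signal above the median were mostly genes without a symbol. AT5G52960 (chromosome 5, 21477146 to 21478437, plus strand, positions as in the array's feature identifiers, whose build is not stated) had occupancies of 0.38, 0.71 and 0.73 in sucrose and -1.27, -1.39 and -0.97 in control cultures. Its change was 1.82 ± 0.18 (SE, adjusted p = 0.00571). Each sucrose culture was enriched in polysomes and each control culture depleted. Polysomal RNA rose by 0.91 and total RNA fell by 0.90.

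BZIP9 (chromosome 5, 8515200 to 8516669, plus strand), a transcription factor of the basic leucine zipper family, had occupancies of 0.24, 0.01 and 0.19 in sucrose and -1.51, -1.76 and -1.56 in control cultures. The change was 1.76 ± 0.14 (3.38-fold, adjusted p = 0.00282), the lowest adjusted p of this comparison. Its polysomal RNA fell by 0.71 and its total RNA fell by 2.46, so its total level dropped far more than the amount on polysomes. Together with AT5G52960, AT3G62190 and AT4G09830 it passed the test in 22 of 24 alternatives.

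ASF1B (chromosome 5, 15208470 to 15210215, plus strand), a histone chaperone used in replication, showed the opposite make-up. Occupancies were 0.55, 0.48 and 0.82 in sucrose and -0.80, -1.25 and -1.06 in control cultures, a change of 1.66 ± 0.30 (adjusted p = 0.0338). Polysomal RNA rose by 1.63, and total RNA differed by -0.03. The gene passed in 13 of 24 alternatives. The other 9 of these 12 rises were genes named by locus only, with changes of 1.74 for AT3G62190, 1.73 for AT5G17670, 1.66 for AT2G39000, 1.63 for AT3G50790, 1.62 for AT2G42220, 1.61 for AT1G70900, 1.60 for AT1G28150, 1.59 for AT1G73885 and 1.51 for AT4G09830.

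**Figure D2:**
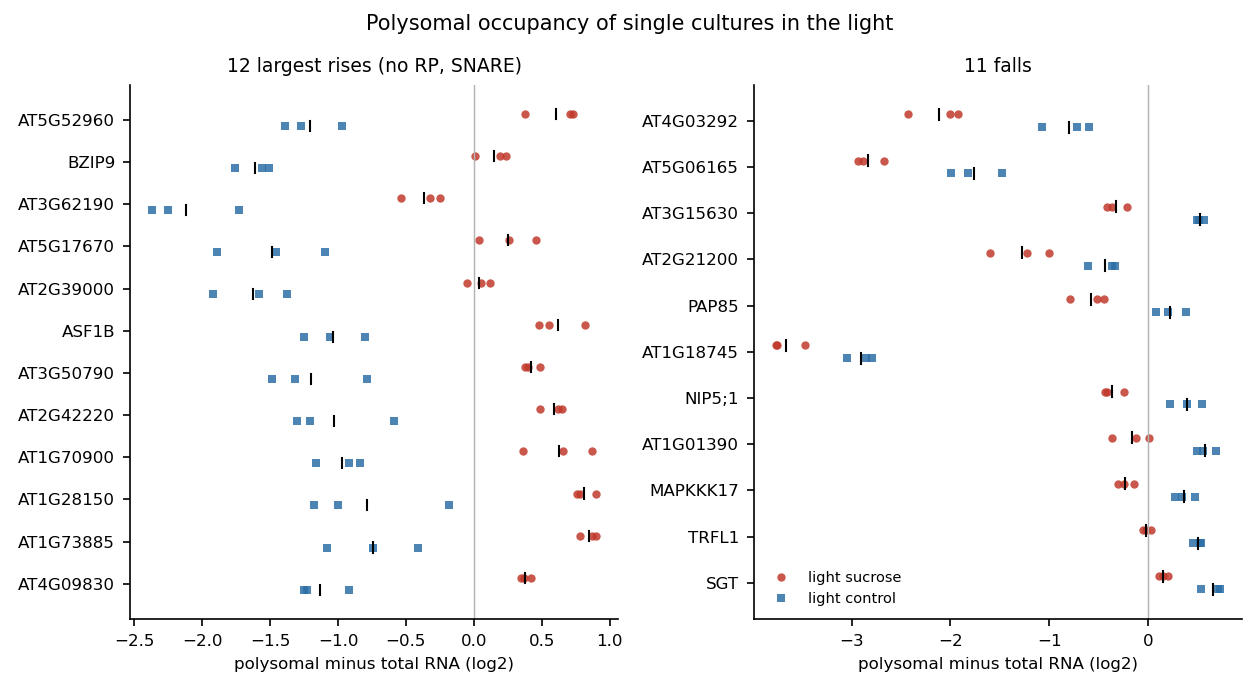
Polysomal occupancy (x axis, polysomal minus total RNA, log2) of each culture for the 12 largest rises and for the 11 falls with a mean total RNA signal above the median, without ribosomal proteins and SNAREs. Red points are the 3 light sucrose cultures, blue squares the 3 light control cultures and black ticks their means. No gene has overlapping groups, and in all 12 rises the control cultures lie below 0.

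Photosynthesis genes had occupancy changes above 0 nearly throughout, but few passed the test. Of 46 features for photosystems and light harvesting, 45 had a change above 0, against 48.2% of all features, with a median change of 0.32. Of the 46, 3 (6.52%) rose, against 0.951% of all features. Median occupancies of the group were 0.23, 0.19 and 0.25 in sucrose and -0.11, -0.10 and 0.03 in control cultures, so the cultures of the treatments did not overlap. In 26 of the 46 features all sucrose cultures lay above all control cultures, as in 11.6% of all features. Total RNA fell for 27 and polysomal RNA for 10 of the 46, against 12.8% of all features in each kind of RNA. Median changes of the 46 were -0.71 in total and -0.40 in polysomal RNA. The part of this loss of total RNA in the occupancy values was not tested.

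The 3 that rose were antenna proteins, which bind chlorophyll and pass on light energy. LHCA1, an antenna of photosystem I, had occupancies of 0.09, 0.05 and 0.03 in sucrose and -0.50, -0.54 and -0.35 in control cultures, a change of 0.52 ± 0.10 (adjusted p = 0.0369). Lhca6 changed by 0.67 ± 0.14 (adjusted p = 0.0483) while its total RNA fell by 2.39. LHB1B2, an antenna of photosystem II, changed by 0.61 ± 0.11 (adjusted p = 0.0344). None of the 3 rests on a wide margin, as they passed in 5 or 6 of 24 alternatives, and several genes named further on were similar. CAB3 and CAB1 had larger values, 1.61 (adjusted p = 0.063) and 1.3 (adjusted p = 0.0586), but did not pass. Near-identical genes such as those of LHCB1, and others named further on (RBCS, AVA-P, actins, tubulins and ubiquitin-conjugating enzymes), may share probe signal, and which copy changed is uncertain.

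The list for the Calvin cycle, which fixes carbon dioxide, had a median change of 0.39 over 20 features. They include TPI (-0.15), a cytosolic isomerase that is not part of the cycle. A single member rose, and 18 were above 0. RBCS1A, a small subunit of Rubisco, had occupancies of 0.16, 0.00 and 0.13 in sucrose and -0.74, -0.68 and -0.67 in control cultures, with a change of 0.80 ± 0.16 (adjusted p = 0.0442). Every sucrose culture lay close to 0 and every control culture well below it. Total RNA fell for 14 of the 20, against 12.8% of all features. Plastid ribosomal proteins had a median of 0.27 over 15 features, 14 above 0, and none passed the test.

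The NDH complex of thylakoids, which carries electrons around photosystem I, was picked as a group after its values were seen. Of its 24 features, 2 (8.33%) rose, against 0.951% of all features, and the median change was 0.27. NdhO, a subunit, changed by 1.27 ± 0.24 (adjusted p = 0.0374), and CRR6, needed for assembly of the complex, by 0.93 ± 0.15 (adjusted p = 0.0261). Total RNA fell for 21 of the 24, against 12.8% of all features, with a median of -1.53. Other nuclear genes of plastid proteins, also chosen after their values were seen, were the thylakoid calcium sensor CaS (1.26 ± 0.17), the lumenal protease DEG5 (1.48 ± 0.23) and the iron-sulphur scaffolds NFU3 (1.43 ± 0.22) and NFU1 (0.63 ± 0.11), which are 2 of 5 NFU genes. THX, a plastid thioredoxin, changed by 1.36 ± 0.23 and was the single rise among 40 thioredoxins and glutaredoxins. Genes encoded in the chloroplast itself had a median change of 0.01 over 84 features, with no call, and their median occupancy was -0.43 in sucrose and -0.48 in control cultures. The 36 mitochondrion-encoded features had a median change of -0.13, with no call either.

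**Figure D3:**
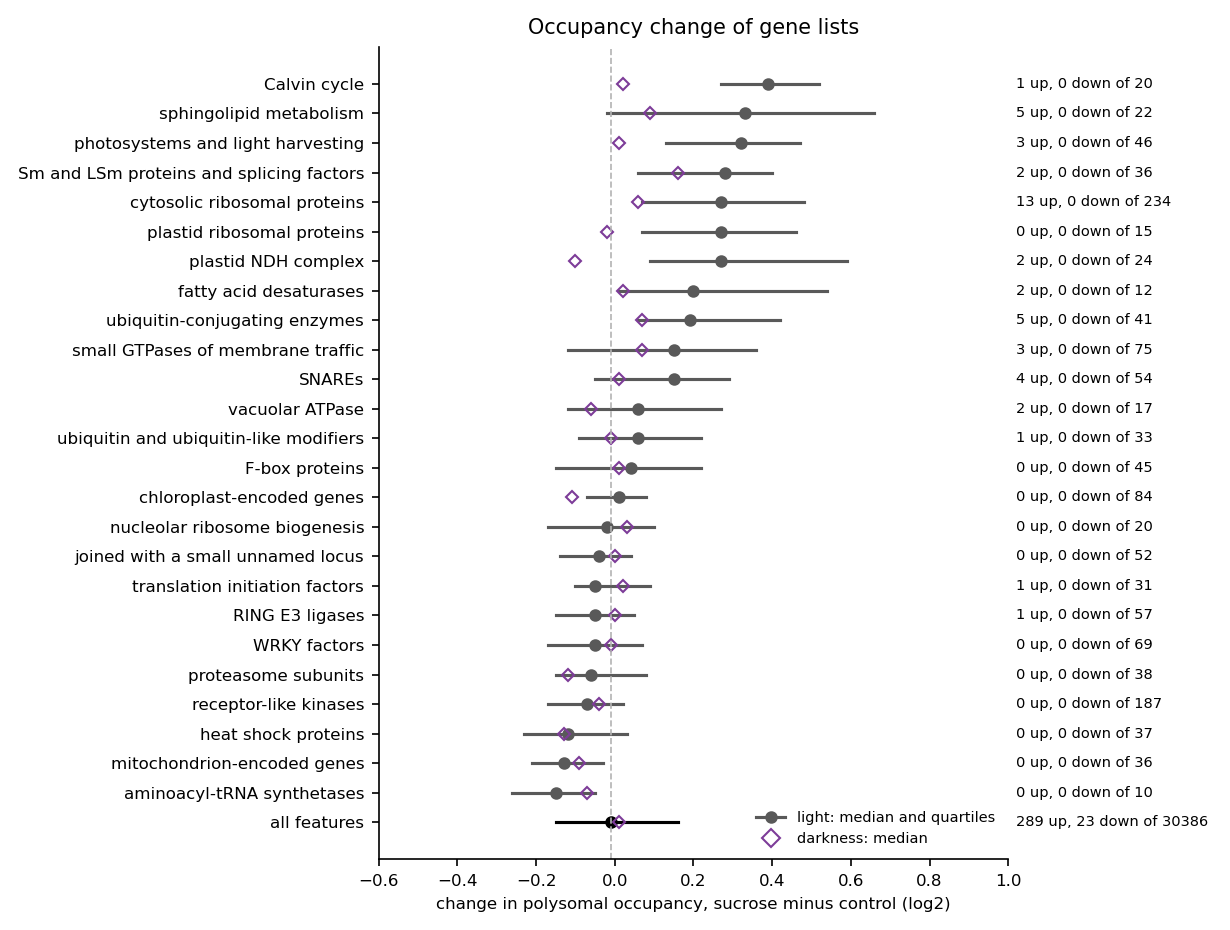
Change in polysomal occupancy (x axis, sucrose minus control, log2) of gene lists. Filled circles and bars give the median and quartiles in the light, open diamonds the median in darkness, the dashed line the light median of all features, and the numbers at the right how many features rose or fell in the light. Among the lists plotted, Calvin cycle, sphingolipid and photosystem genes have the highest medians in the light, at 0.39, 0.33 and 0.32, against 0.02, 0.09 and 0.01 in darkness. The sphingolipid, desaturase and NDH lists were drawn after the values were seen. Short lists left off the plot had higher medians, among them 0.52 for NFU and 0.51 for A20/AN1 genes.

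Several enzymes of membrane lipids were among the rises. Sphingolipids are lipids of the plasma membrane and its microdomains, built on a long-chain base. Of 22 features of sphingolipid metabolism, a list drawn after the values were seen, 5 (22.7%) rose and none fell, against 0.951% of all features that rose, and the median was 0.33. As the list was drawn for its rises, this share is a description only. LCB2, a subunit of the serine palmitoyltransferase that starts the pathway, had occupancies of -0.01, -0.13 and -0.04 in sucrose and -0.67, -0.91 and -0.59 in control cultures. This was a change of 0.66 ± 0.12 (adjusted p = 0.0352), and its total RNA fell by 0.49.

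SBH2, which hydroxylates the long-chain base, had occupancies of 0.14, 0.18 and 0.14 in sucrose and -0.70, -0.86 and -0.73 in control cultures, a change of 0.92 ± 0.09 (adjusted p = 0.00588). The spread within each treatment was small beside the difference. FAH2, which hydroxylates the fatty acid part, changed by 1.20 ± 0.20 (adjusted p = 0.025), the phosphatase SPP1 by 0.85 ± 0.16 (adjusted p = 0.0344) and the ceramidase ATCES1 by 0.70 ± 0.14 (adjusted p = 0.044). The paralogs FAH1 (0.40, adjusted p = 0.23) and SBH1 (0.12, adjusted p = 0.69) did not pass, and neither did LCB1 (-0.20, adjusted p = 0.44), the partner of LCB2.

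Fatty acid desaturases, a list also drawn after the values were seen, contributed 2 rises of 12 features (16.7%), against 0.951% of all features. FAD2 makes linoleic acid in the endoplasmic reticulum, and FAD3 converts it to linolenic acid there. The occupancy of FAD2 was -0.27, -0.16 and -0.35 in sucrose and -0.95, -0.87 and -0.89 in control cultures, a change of 0.64 ± 0.11 (adjusted p = 0.032). FAD3 changed by 0.71 ± 0.10 (adjusted p = 0.0154), with a polysomal rise of 1.21 and a rise of 0.50 in total RNA. Both mRNAs stayed depleted from polysomes in sucrose, less so than in control. Among the plastid enzymes of the same reactions, FAD7 had 0.77 (adjusted p = 0.057), FAD6 0.51 (adjusted p = 0.10) and FAD8 -0.21 (adjusted p = 0.48).

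Lipid genes outside these lists were found among the rises after the values were seen. CB5-D, a cytochrome b5 that supplies electrons to enzymes such as desaturases, had occupancies of 0.43, 0.46 and 0.40 in sucrose and -0.65, -0.76 and -0.59 in control cultures, a change of 1.10 ± 0.14 (adjusted p = 0.00949). ROD1, which exchanges head groups between phosphatidylcholine and diacylglycerol, changed by 0.64 ± 0.13, the sterol isomerase HYD1 by 0.62 ± 0.12 and the plastid acyl carrier protein ACP4 by 1.31 ± 0.23. These genes moved from depletion towards or above an even distribution.

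In the ubiquitin system, most rises were of conjugating enzymes, which receive ubiquitin from the activating enzyme and pass it on to a target. Of 41 features, 5 (12.2%) from 4 loci rose, against 0.951% of all features. The median was 0.19, and 32 (78.0%) were above 0, against 48.2% of all features. UBC28 had occupancies of 0.09, 0.02 and 0.08 in sucrose and -1.24, -1.23 and -1.06 in control cultures, a change of 1.24 ± 0.14 (adjusted p = 0.0071). UBC8 had -0.32, -0.15 and -0.44 in sucrose and -1.93, -1.60 and -1.64 in control cultures, a change of 1.42 ± 0.20 (adjusted p = 0.0151). In both genes total RNA fell, by 1.18 and by 1.03, while polysomal RNA had 0.06 for UBC28 (adjusted p = 0.779) and rose by 0.39 for UBC8 (adjusted p = 0.0303).

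MMZ2, an enzyme variant that assists in chain building, was measured by 2 overlapping features that gave 1.47 ± 0.20 and 1.46 ± 0.19. UBC2, a homologue of yeast RAD6, changed by 0.66 ± 0.13 (adjusted p = 0.0461). Of 33 ubiquitin and ubiquitin-like modifiers, SUMO2 alone rose (1.22 ± 0.21, adjusted p = 0.0313). ATL15 was the single rise (0.75 ± 0.15) among the 57 listed RING ligase features, or 1.75%, against 0.951% of all features. CIP8, a RING ligase that binds COP1 and is outside that list, had 1.25 ± 0.16 and was noticed after its value was seen. The list of F-box proteins had no call among 45. Proteasome subunits had a median of -0.06 and no call among 38, although total RNA of 33 rose, against 15.7% of all features.

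Genes of membrane traffic other than SNAREs rose as single family members. Small GTPases switch between a GTP and a GDP form to guide vesicles. Of 75 features, 3 (4.0%) rose, against 0.951% of all features, with a median of 0.15. RABA5E, of a clade that acts on the way from the Golgi to the cell surface, had occupancies of 0.04, 0.37 and 0.45 in sucrose and -0.97, -1.45 and -1.09 in control cultures, a change of 1.46 ± 0.18 (adjusted p = 0.00957). ARFA1E, which recruits vesicle coats, had -0.05, 0.04 and -0.11 in sucrose and -1.22, -1.20 and -1.16 in control cultures, a change of 1.15 ± 0.13 (adjusted p = 0.00588). For RABA5E polysomal RNA rose by 1.45 with total RNA at -0.01, while for ARFA1E total RNA fell by 0.77.

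ARF3, an ARF-like GTPase of the Golgi, changed by 0.81 ± 0.15 (adjusted p = 0.0324). RABA1b had 1.34 (adjusted p = 0.051) and did not pass. No coat or adaptor protein was called among 13. In the vacuolar proton pump, 2 of 17 features (11.8%) rose, against 0.951% of all features. They were AVA-P4 with 0.94 ± 0.17 and AVA-P2 with 0.73 ± 0.15, both genes of the ring subunit that carries protons through the membrane. The median over the pump was 0.06.

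**Figure D4:**
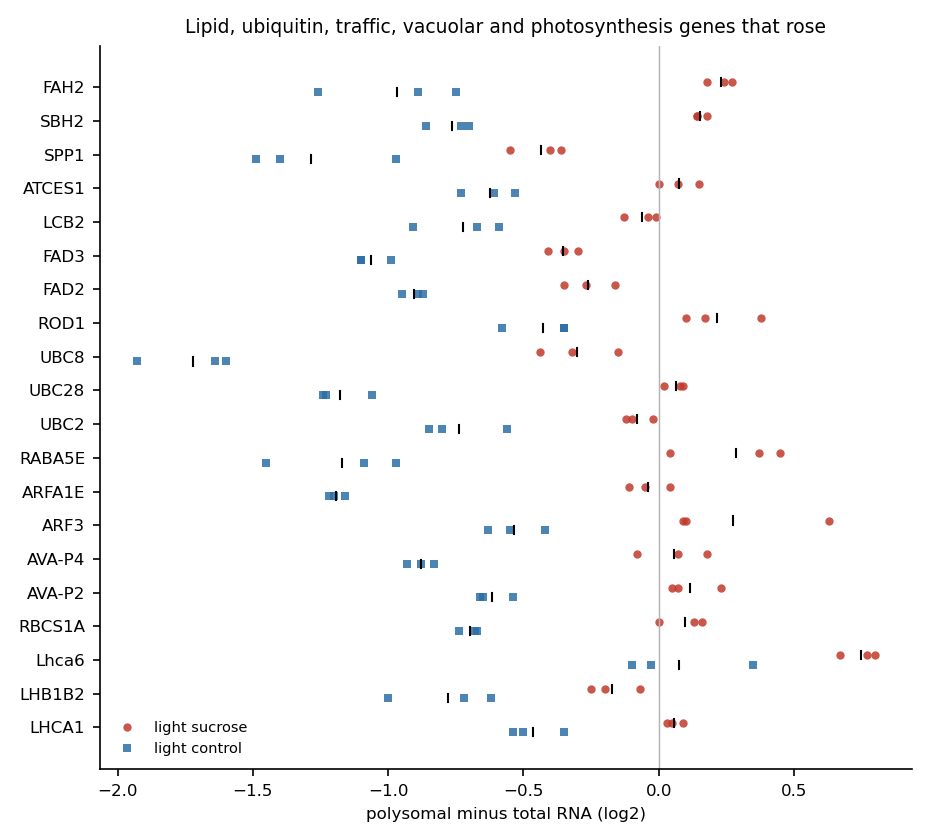
Polysomal occupancy (x axis, polysomal minus total RNA, log2) of each culture for rises in lipid, ubiquitin, traffic, vacuolar and photosynthesis genes. Red points are light sucrose cultures, blue squares light control cultures and black ticks means of 3 cultures. Most control cultures lie between -0.3 and -2.0 and most sucrose cultures near 0, with Lhca6 the gene that lies furthest to the right.

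Genes of RNA processing and translation were also among the rises. Among 36 features listed as Sm, LSm and splicing factors, 2 (5.56%) rose, against 0.951% of all features, 30 were above 0 and the median was 0.28. The 36 include SMB (-0.27), a NAC transcription factor taken in by its symbol. RS31, a serine and arginine-rich splicing factor, had occupancies of 0.69, 0.67 and 0.75 in sucrose and 0.19, 0.22 and 0.20 in control cultures, a change of 0.49 ± 0.09 (adjusted p = 0.0344). It was enriched in polysomes in both treatments. RSZ21 changed by 0.74 ± 0.12 (adjusted p = 0.023). EIF3K was the single rise among 31 initiation factor features (0.68 ± 0.12), and eEF-1Bb1, an exchange factor of elongation, had 0.90 ± 0.16. GRP7, a glycine-rich RNA-binding protein under clock control, with 0.69 ± 0.12, and TCTP, a conserved growth-related protein, with 0.91 ± 0.12, were noticed after their values were seen.

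The list of nucleolar genes of ribosome biogenesis had no call. Its 20 features include FIB4, a plastid fibrillin taken in by its symbol, with -0.29 in total RNA. Total RNA of 18 of 20 rose, against 15.7% of all features, and polysomal RNA of 18 of 20, against 18.5%. The median changes of the list were 1.12 and 1.09, and its median occupancy change was -0.02. Cytosolic ribosomal proteins rose in total RNA for 195 of 234 features, against 15.7% of all features, and had a median occupancy change of 0.27. For aminoacyl-tRNA synthetases the median was -0.15 over 10 features, and for heat shock proteins -0.12 over 37, with no call in either. In 14 of the 37 heat shock features all sucrose cultures lay below all control cultures, as in 8.41% of all features.

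Regulators of transcription were represented by a few genes. Of 62 ethylene response factor features 3 (4.84%) rose, against 0.951% of all features, at a list median of 0.02. They were CRF11 with 1.14 ± 0.18, DEAR2 with 0.75 ± 0.12 and EBP with 0.57 ± 0.11. EBP had occupancies of -0.19, -0.23 and -0.17 in sucrose and -0.74, -0.82 and -0.73 in control cultures, and its total RNA fell by 1.57. There was no call among 69 WRKY, 128 MYB and 28 bHLH features. LCL1, a MYB-like factor of the clock, had 1.28 ± 0.20, the cold- and clock-regulated COR27 0.91 ± 0.17 and the D-type cyclin CYCD3;2, which drives cell division, 1.09 ± 0.22. These 3 were chosen after their values were seen. HTA9, a histone H2A variant, was the single rise among 21 core histone features (0.83 ± 0.13).

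In the cytoskeleton, ACT8, an actin of vegetative tissue, had occupancies of 0.15, 0.19 and 0.04 in sucrose and -0.85, -1.0 and -1.09 in control cultures, a change of 1.11 ± 0.14 (adjusted p = 0.0098). TUB4, a beta-tubulin, changed by 0.66 ± 0.13. They were 2 (8.33%) of 24 actin and tubulin features, against 0.951% of all features. That list was drawn after the values were seen, and its median was 0.02. Other single rises of a list were TIM17-2 and CYP71A13. TIM17-2, of the protein import channel of the inner mitochondrial membrane, had 0.88 ± 0.14 (1 of 23). CYP71A13, an enzyme of camalexin synthesis, had 0.88 ± 0.17 and was 1 of 245 cytochrome P450 features. This is 0.408%, against 0.951% of all features, and no result about the family. The polysomal signal of CYP71A13 was low in light control, at 3.91 to 4.24. Further rises, chosen after their values were seen, were MTN1, which recycles methylthioadenosine (1.38 ± 0.25), ACR9, a protein with ACT domains (1.37 ± 0.15), the stress-induced SAG21 (1.16 ± 0.24) and the gibberellin-regulated peptide GASA4 (0.91 ± 0.17).

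Falls in occupancy were fewer and smaller. Of the 23, 11 met the rule for naming. NIP5;1, a channel for boric acid in roots (chromosome 4, 6431236 to 6434822, minus strand), had occupancies of -0.41, -0.43 and -0.24 in sucrose and 0.40, 0.55 and 0.23 in control cultures, a change of -0.75 ± 0.11 (adjusted p = 0.0181). It was the single call among 34 aquaporins, and its total RNA differed by -0.08 only. MAPKKK17, a kinase of a signalling cascade, was similar, with -0.59 ± 0.10 in occupancy (adjusted p = 0.0313) and 0.04 in total RNA. Both were depleted from polysomes in all sucrose cultures and enriched in all control cultures.

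PAP85, a seed storage protein of the vicilin type, had occupancies of -0.44, -0.51 and -0.79 in sucrose and 0.21, 0.39 and 0.08 in control cultures, a change of -0.81 ± 0.17 (adjusted p = 0.0496). Its total RNA fell by 2.34 and its polysomal RNA by 3.15. TRFL1, a protein related to telomere repeat binding factors, changed by -0.52 ± 0.09 and SGT, a sterol glucosyltransferase, by -0.50 ± 0.09. AT4G03292 (-1.32 ± 0.19), AT3G15630 (-0.85 ± 0.12), AT2G21200 of the SAUR family (-0.84 ± 0.17) and AT1G01390 (-0.74 ± 0.14) also fell. Light control signals of AT4G03292 were low, at 3.98 to 4.37 in polysomal and 4.58 to 5.22 in total RNA, so the size of its fall is uncertain. PAP85 and AT2G21200 passed in 5 and 6 of 24 alternatives. Falls with less signal, chosen after their values were seen, were UGE3, an epimerase of UDP-sugars (-0.81 ± 0.14), the linker histone HIS1-3 (-0.79 ± 0.12) and GSTU23 (-0.67 ± 0.10). In light sucrose, UGE3 signals were 3.57 to 3.78 in polysomal and 3.5 to 3.82 in total RNA. They lie near 3.69, the median total RNA signal of pseudogene-type loci, so its fall is not a measure of size. Light sucrose signals of HIS1-3 and GSTU23 were also low, at 4.01 to 4.57.

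Noncoding RNAs gave 4 rises and 3 falls among 579 features. The rises are 0.691% of the list, against 0.951% of all features, and are no result about noncoding RNAs as a group. The 3 falls are a larger share of the list than the 0.0757% of all features that fell. That difference was not tested. For AT4G38932 the polysomal signal was 2.96, 2.86 and 2.93 in sucrose and 3.60, 3.20 and 3.51 in control cultures, and the total signal 4.30, 4.49 and 4.21 in sucrose and 6.97, 6.94 and 6.91 in control cultures. The polysomal signals lie below 3.69, the median total RNA signal of pseudogene-type loci, so that the fitted rise of 2.08 (adjusted p = 0.0123) goes with the fall in total RNA and is not a measure of size. The same holds for the MIR167d locus, which gives a microRNA precursor and was called with a rise (adjusted p = 0.00756), with polysomal signals of 2.18 to 2.33 in sucrose and 3.17 to 3.21 in control cultures. The falls AT5G06165 (-1.07 ± 0.15) and AT1G18745 (-0.76 ± 0.14) are noncoding as well. In these the total signal rose by 1.23 and by 1.0, with changes of 0.16 and 0.24 in polysomal RNA that did not pass. Their polysomal signals were low, at 3.93 to 4.68 over the 6 light cultures. All 4 had occupancies below 0 in each of the 6 light cultures.

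Besides ribosomal proteins, 8 genes had been picked for qRT-PCR, a choice made within the study of these samples, so their direction is not independent evidence. Of the 8, 3 rose. AT1G51200, an A20/AN1 zinc finger protein, had occupancies of -0.80, -0.41 and -0.26 in sucrose and -1.40, -1.65 and -1.91 in control cultures, a change of 1.16 ± 0.23 (adjusted p = 0.0423). TOPP1, a catalytic subunit of a type 1 phosphatase, changed by 1.35 ± 0.20 (adjusted p = 0.0181) and was the single rise among 37 phosphatase features. AT1G73530, an RNA-binding protein, changed by 1.22 ± 0.22 (adjusted p = 0.0344). The calcium pump ECA4 had -0.38 (adjusted p = 0.0868) and the membrane-anchored ubiquitin-fold protein MUB1 0.48 (adjusted p = 0.162). CYP96A12, AT3G25940 and HSA32 had -0.03, 0.13 and 0.07, with adjusted p of 0.96, 0.915 and 0.959.

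Genes of the group S1 bZIP factors carry an upstream reading frame whose peptide is known to repress their translation at high sucrose. None of the 5 was called. GBF6, the best-studied member, had occupancies of -0.46, -0.26 and 0.04 in sucrose and 0.02, 0.05 and -0.07 in control cultures, so the groups overlapped. Its change was -0.23 ± 0.14 (adjusted p = 0.524), with rises of 1.83 in polysomal and 2.06 in total RNA. The changes were -0.33 for bZIP44, -0.24 for BZIP53, -0.05 for bZIP2 and 0.08 for bZIP1, with adjusted p of 0.409, 0.477, 0.935 and 0.884. The array joins each of these genes with a small second locus. Of 52 other features joined in this way, none was called, and their median was -0.04.

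Sugar transporters (57 features), receptor-like kinases (187), pentatricopeptide repeat proteins (51), RNA polymerase subunits (34), calmodulins (20) and expansins with xyloglucan endotransglucosylases (65) also had no call, with medians between -0.07 and 0.05. At a background of 0.951%, a list of this size may hold no rise without differing from other genes, and the lists may miss members of their families.

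In darkness, most of the same features had a change of the same sign. Of the 289 rises in the light, 271 had a change above 0 in darkness, at a median of 0.42, and 3 were called there. In all, 4 features (0.0132%) changed in darkness, with 3 rises (0.00987%) and 1 fall (0.00329%), and 3011 had an unadjusted p under 0.05. SBH2 was called in both, with dark occupancies of 0.16, -0.06 and 0.12 in sucrose and -0.73, -0.85 and -0.81 in control cultures. Its dark change was 0.88 ± 0.09 (adjusted p = 0.0163), close to the 0.92 of the light. The others were AT3G54363 (0.81 in the light, 1.26 in darkness) and AT5G10946 (1.29 and 1.91). The 23 falls had a dark median of -0.38, with 18 below 0.

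**Figure D5:**
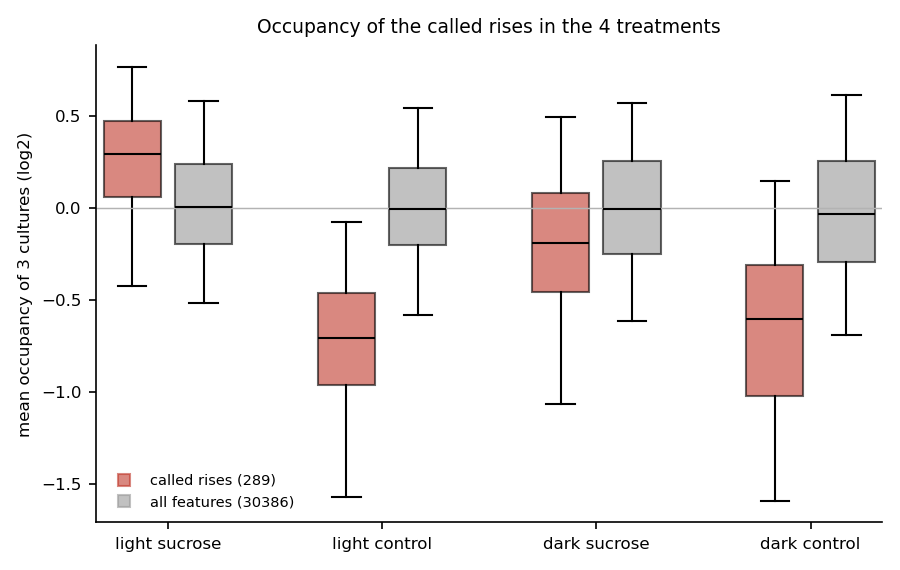
Polysomal occupancy (y axis, mean of 3 cultures, log2) in the 4 treatments for the 289 rises (red) and all 30386 features (grey). Boxes give the median and quartiles, whiskers the 5th and 95th percentiles. The rises have medians of 0.29 in light sucrose, -0.71 in light control, -0.19 in dark sucrose and -0.61 in dark control.

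A difference between the sucrose effects in light and darkness was tested for each feature. None (0.0%) passed, and 1963 had an unadjusted p under 0.05. A change called in the light alone is therefore not shown to be restricted to it. Photosystem genes had list medians of 0.32 in the light and 0.01 in darkness, Calvin cycle genes 0.39 and 0.02, and the 3 antenna genes that rose had dark changes of -0.18 (Lhca6), -0.20 (LHB1B2) and -0.27 (LHCA1). EBP changed by 0.57 in the light and -0.47 in darkness, a difference of 1.03 ± 0.15 (adjusted p = 0.31). For MSRB5, a methionine sulfoxide reductase chosen after its values were seen, the values were 1.24 and -0.16, a difference of 1.40 ± 0.24 (adjusted p = 0.386).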

How the data were processed

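The authors hybridized total RNA and RNA of small polysomes to tiling arrays and made the deposited log2 values with RMA, without the arrays of non-polysomal RNA. The values (0.83 to 14.49) were used as deposited. After 371 array controls were left out, 30386 features of 30174 loci remained, of which 29886 (98.4%) matched the reference gene table, used for names only. Polysomal minus total RNA was taken per culture, and the 12 differences were fitted in limma 3.58.1 (R 4.3.3) with 4 treatment means and moderated variances. The prior had 2.8 degrees of freedom, and p-values were adjusted after Benjamini and Hochberg over all features. A change was called at an adjusted p under 0.05. Polysomal and total RNA changes came from a limma fit to the 24 arrays with 8 means. All adjusted p-values are from limma, and ± is the SE of the fit unless stated otherwise. Each replicate was a separate culture. The number of arrays limits the precision.

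Members and lists were chosen with earlier results of these data known. Of the gene lists, 49 came from the reference names, and 5 (sphingolipid metabolism, desaturases, NDH complex, NFU scaffolds, actins and tubulins) were added after the values were seen, as was the removal of CRR1 and CRR6 from the pentatricopeptide list. Named genes were the 12 largest rises and falls without overlap between cultures and with a mean total RNA signal above the median, cytosolic ribosomal proteins and SNAREs left out, up to 3 called members with the largest change in each list, the 8 qRT-PCR genes and the 5 group S1 bZIP genes. Other names are marked as chosen later. Alternatives covered the cultures fitted, the variance model, a replicate block, normalization, a signal filter, a fold threshold and leaving out replicates. Sequence features were not analysed here. Figures were drawn with matplotlib 3.10.9 in Python 3.11.15.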

Additional observations from a re-analysis of the deposited data

How the results depend on the processing

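The counts of occupancy calls depended strongly on the model, at 3 cultures per treatment. Against 312 calls (289 rises, 23 falls), a fit of only the 6 light cultures gave 206, with 13 falls, and a fit of the 24 arrays without culture 109 (105 and 4). With culture as a random block (correlation 0.417) it gave 665 (605 and 60), and with an intensity trend and robust prior 975 (832 and 143). A test of only features above the median signal gave 1291 (1094 and 197), quantile normalization 60 falls among 429 calls, and a threshold of more than 2-fold 125 (119 and 6). The cause was not tested. Medians centred per culture gave 326. Rises were 84.7% to 97.1% of the calls in the settings that gave any, against 92.6% as reported. Without 1 replicate of all treatments there were 0 to 368 calls, 0 to 356 rises and 0 to 12 falls. Without 1 light culture there were 24 to 291 calls, 21 to 274 rises and 1 to 17 falls. Without 1 dark culture, an alternative added after the data were seen, there were 128 calls (118 and 10, dark control 8) to 900 (839 and 61, dark sucrose 9). All called features kept their sign where tested, which the lack of overlap between cultures fixes in advance.

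With the replicate number as a block, 50 features were called (48 rises, 2 falls). Occupancy deviations of cultures with the same number correlated at 0.044, 0 and 0.132 (replicates 7, 8 and 9), and sucrose culture 8 correlated best with control culture 7 (0.124). A shift shared by polysomal and total RNA of a culture cancels in occupancy, so these values cannot decide whether the numbers pair the cultures. The fits of polysomal and total RNA had no replicate block.

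Called genes differed in how many alternatives they passed, from 5 of 24 for LHB1B2 and PAP85 to 22 of 24 for BZIP9. EBP and ATL15 passed in 6, AT1G51200, RS31 and ARF3 in 7, and RBCS1A, FAD2, TUB4, NFU1 and AVA-P2 in 8 of 24. Among named genes, only uncalled ones changed sign, all of them when a replicate or culture was left out. Over these settings CYP96A12 ranged from -0.131 to 0.062, AT3G25940 from -0.138 to 0.304, HSA32 from -0.2 to 0.362, bZIP2 from -0.215 to 0.186 and bZIP1 from -0.027 to 0.174.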

Other observations

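Beyond the comparisons above, a few features with low signal or without a symbol had the lowest adjusted p for the difference between light and darkness, though none passed. AT1G70885 changed by 1.58 in the light and -1.22 in darkness, a difference of 2.81 ± 0.33 (adjusted p = 0.0627 from limma), at total RNA signals of 2.7 to 3.29 in light sucrose and 4.0 to 4.73 in light control. AT2G10160, of pseudogene type, changed by -1.75 and 0.71, a difference of -2.46 ± 0.29 (adjusted p = 0.0627). The single fall called in darkness was AT1G54500, with occupancies of -1.33, -1.25 and -1.31 in dark sucrose and -0.55, -0.51 and -0.35 in dark control cultures. Its change was -0.83 in darkness (adjusted p = 0.0222) and -0.07 in the light (adjusted p = 0.837).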
